A study of Homo sapiens with 24 samples.

Results

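The comparison set the control siRNA libraries of HEK293T cells against the untreated libraries of Flp-In T-REx 293 cells, 2 derivatives of one human embryonic kidney line that served as baselines in a study of the RPRD proteins. The 4 libraries, 2 a group, were taken by cell line and condition from the 24 libraries of the series, which fall into 12 groups. The HEK293T group (CTRL) carried a control siRNA for 48 h, and the Flp-In group (FLP) was untreated. Both were kept in DMEM with heat-inactivated serum, penicillin and streptomycin, and poly(A) RNA was read with a QuantSeq 3' REV kit, which gives roughly one read per transcript from its 3' end. The other HEK293T libraries (14 in 7 groups) received siRNAs against RPRD1A, RPRD1B or RPRD2, alone or combined. The other Flp-In libraries (6 in 3 groups) were the parent line with tetracycline (FLP_TET) and a line named RPRD1B_FL with and without it.

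Each of the 16 HEK293T libraries was transfected and none of the 8 Flp-In libraries was, so that cell line, transfection and library preparation cannot be told apart in any value given here. The labels name no batch and do not say whether replicates were separate cultures, so the p-values measure the spread between these libraries, which may be technical. The FLP libraries stand for one parent Flp-In line, and the labels do not say how many clones or passages lie behind either group.

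HEK293 cells descend from fetal kidney cultures transformed with sheared adenovirus 5 DNA, and they carry the viral E1A and E1B genes. HEK293T cells also express the SV40 large T antigen, which binds the retinoblastoma proteins. Flp-In T-REx 293 cells carry an FRT recombination site for inserting a transgene and the Tet repressor, which holds a tetracycline-inducible promoter silent. The lines are known for many copy-number changes and for a mixed profile of neuronal, progenitor and epithelial genes.

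Counts in genes came to 1833696 and 2209270 in the CTRL libraries and to 2678571 and 3531106 in the FLP libraries. Levels are given as CPM, counts scaled to a common library total, and 3 counts, the limit that a count of 0 allows and the level below which a gene was taken as not detected, were worth 1.67 and 1.33 CPM in CTRL and 1.14 and 0.86 CPM in FLP, counting error only. Reads that fell in no annotated gene made up 35% and 27.4% of the CTRL libraries and 19.5% and 17.7% of the FLP libraries, and this share separated the lines over the whole series (27.4% to 36.7% in HEK293T and 15.3% to 19.5% in Flp-In); its part in the gene differences was not tested. Log-scale levels correlated across genes at r = 0.964 between the CTRL libraries, 0.98 between the FLP libraries and 0.84 and 0.844 between libraries of different groups with the same number, a description over genes that are not independent. The replicates differed by more than counting noise, with a chi-square per degree of freedom of 5.55 in CTRL and 4.54 in FLP.

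Of 12 markers of the HEK293 lineage, 10 were above the detection limit in CTRL and 11 in FLP, and their summed level was 254 and 307 CPM in CTRL and 956 and 994 CPM in FLP. The 9 hepatocyte markers, ALB among them, summed to 0 CPM in both CTRL libraries and to 0.380 and 0.287 CPM in FLP. Fibroblast markers summed to 10.0 and 14.6 CPM in CTRL and 8.36 and 8.03 CPM in FLP, and endothelial markers stayed between 2.87 and 3.55 CPM in all 4 libraries. The 13 haematopoietic markers summed to 12.8 and 18.6 CPM in CTRL and to 60.5 and 42.4 CPM in FLP, of which LCP1 made up 58.2 and 41.0 CPM in FLP. Markers of differentiated epithelium summed to 20 and 24.8 CPM in CTRL and to 164 and 115 CPM in FLP. In bulk RNA of this kind, fewer cells with a transcript and less of it per cell cannot be told apart.

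Between CTRL and FLP, 4279 of 12803 genes tested (33.4%) were called at an adjusted p under 0.05 (edgeR's quasi-likelihood test, Benjamini-Hochberg adjustment). In CTRL, 2057 genes (16.1%) were higher and 2222 (17.4%) lower, and the median log2 fold change over all genes tested was 0.02; log2 differences are CTRL minus FLP throughout. A log2 difference of at least 3 in size was reached by 528 of the genes called, 189 higher and 339 lower in CTRL. The groups did not overlap in 8419 of the genes tested (65.8%), so that non-overlap by itself is the usual state of a gene in this comparison.

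**Figure D1:**
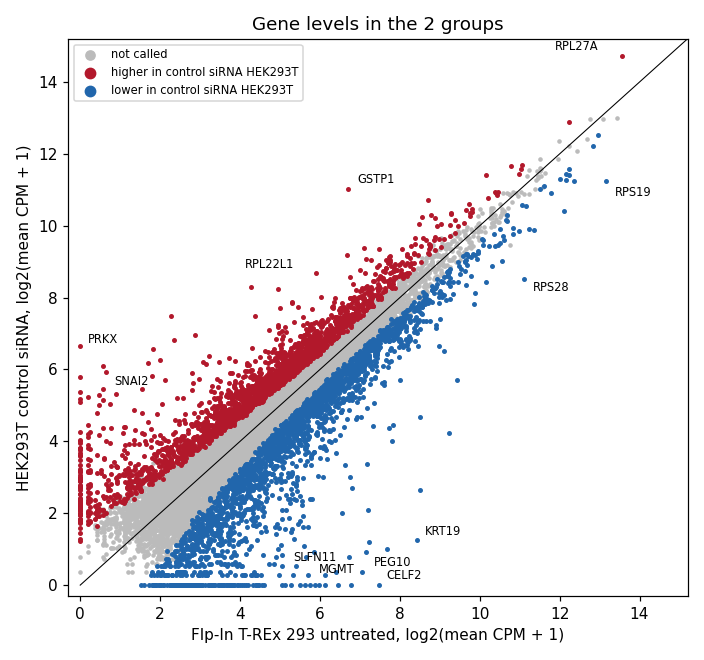
Mean level of each of 12803 genes in the 2 FLP libraries (horizontal axis) and the 2 CTRL libraries (vertical axis), both as log2(mean CPM + 1), with genes called higher in CTRL in red, lower in blue and the rest in grey, and the line of equal level. GSTP1 (2092 CPM against 104 CPM) and KRT19 (1.39 CPM against 343 CPM) lie far from the line, and a row of genes along each axis had no counts in one group.

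The other libraries of the lines, which share no sample with CTRL or FLP, gave a second contrast between the lines, fitted separately. The 7 knockdown groups, with siRNAs against RPRD genes, were set against the 3 other Flp-In groups (FLP_TET and RPRD1B_FL with and without tetracycline). In these 20 libraries 8356 of 12674 genes (65.9%) were called, 4187 higher and 4169 lower in HEK293T. Of the 4230 genes called between CTRL and FLP that were tested here too, 4098 kept their direction, 3770 (89.1%) were called in that direction and 29 were called in the opposite one. The log2 fold changes of the 2 sets had a Spearman rho of 0.798 across 12674 genes. The sets share cell lines and the transfection of all HEK293T cells, so their likeness does not separate line from transfection or library preparation.

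**Figure D2:**
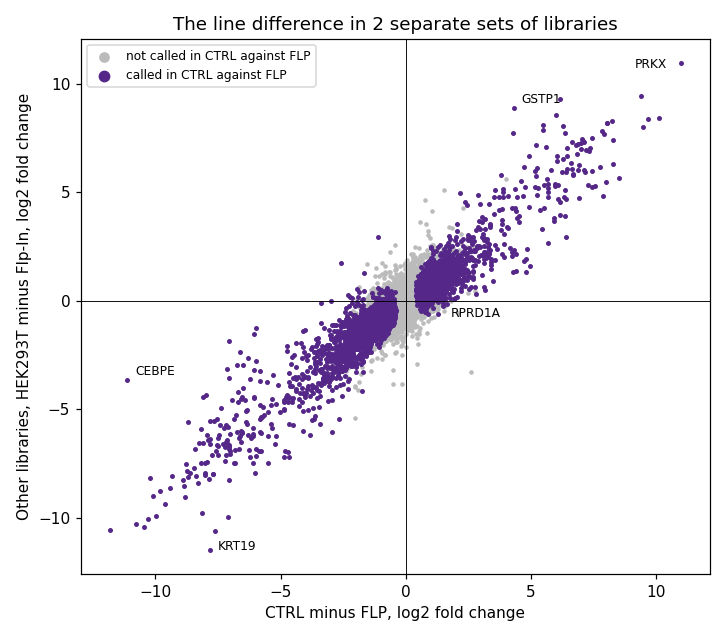
Log2 fold change of each of 12674 genes between CTRL and FLP (horizontal axis) and between the other HEK293T and other Flp-In libraries (vertical axis), with genes called between CTRL and FLP in purple and the rest in grey. Most purple points lie to the lower left or upper right of the origin (4098 of 4230 kept their direction); CEBPE and RPRD1A lie off the diagonal, and fitted values of genes without counts in a group depend on the prior count.

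A first class of difference was close to all or none. Of 8708 genes with a mean of 10 CPM or more in CTRL, 41 were at or under the detection limit in both FLP libraries, and 16 of them had no FLP count at all. Of 8905 genes at that level in FLP, 106 were at or under the limit in both CTRL libraries, 42 of them without a CTRL count. Of the 41, 31 were above the limit in all 16 HEK293T libraries and in none of the 8 Flp-In libraries, and of the 106, 58 were above it in all 8 Flp-In libraries and in none of the 16 HEK293T libraries. All 106 were above the limit in the 4 parent Flp-In libraries. These genes were chosen by their levels in CTRL and FLP, so those levels are a description.

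**Figure D3:**
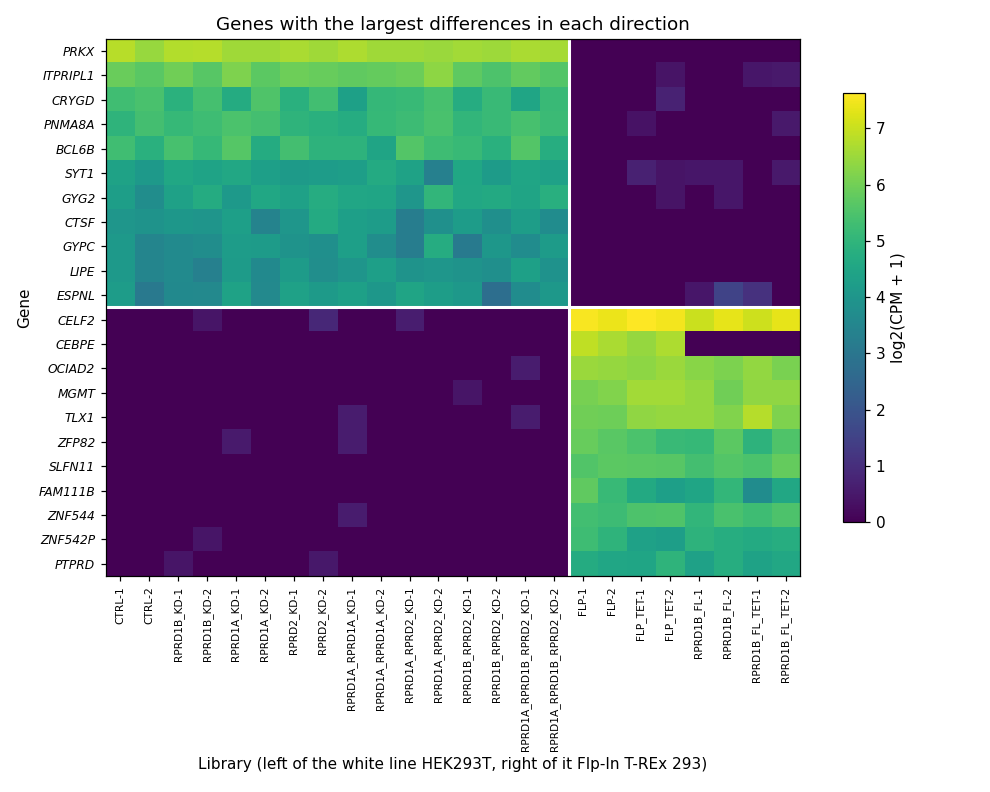
Level as log2(CPM + 1), by colour, of genes with the largest differences in each direction (11 each, rows) in all 24 libraries (columns, HEK293T left of the white line and Flp-In right of it). The upper 11 genes are bright in all 16 HEK293T libraries and dark in Flp-In, the lower 11 the reverse, apart from CEBPE, which is dark in the 4 RPRD1B_FL libraries.

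PRKX, an X-linked protein kinase of the cAMP-dependent family (chrX:3604370-3713608 in GRCh38), had 112 and 86.9 CPM in the CTRL libraries and no count in the FLP libraries, at least 87.3-fold higher (adjusted p = 2.591e-13). Its level was 89.1 to 110 CPM in the other 14 HEK293T libraries and 0 in the other 6 Flp-In libraries. ITPRIPL1, a membrane protein related to inositol trisphosphate receptor-interacting proteins, had 58.3 and 50.1 CPM in CTRL and none in FLP, at least 47.5-fold higher. In both genes every HEK293T library lay above every Flp-In library. Among all genes tested, the other libraries did not overlap between the lines in 25.9%.

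The lens crystallin CRYGD had 38.3 and 42.1 CPM in CTRL against 0, at least 35.3-fold higher, and the transcriptional repressor BCL6B 38.3 and 27.9 CPM against 0, at least 29.1-fold higher. SYT1, the calcium sensor of synaptic vesicles, was at 20 and 16.4 CPM against 0 and thus at least 15.96-fold higher. FLP held no count of any of these 3 genes.

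Transcription factors stood on both sides. On the CTRL side the homeobox gene BARX1 had 45.0 and 90.5 CPM in CTRL and 0.380 and 0.573 CPM in FLP, a ratio of counts of 143 (95% interval 48.6 to 699, counting error only). SNAI2, the zinc finger repressor also called Slug, had 42.8 and 76.3 CPM against 1.14 and 0 CPM, a ratio of 125 (42.4 to 611). PLAGL1, an imprinted zinc finger gene, had 28.9 and 33.7 CPM against 0.760 and 0 CPM, a ratio of 96.6 (26.2 to 806). For ISL1, a LIM homeobox gene of motor neurons and heart progenitors, the levels were 17.8 and 16.4 CPM against 0.760 and 0 CPM, a ratio of 52.1 (13.9 to 438). In all 4 genes the FLP libraries rest on 1 to 3 counts in total.

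On the FLP side, CELF2, an RNA-binding regulator of splicing, had 188 and 168 CPM in FLP and no count in CTRL, at least 107-fold lower in CTRL (adjusted p = 4.924e-12). In the other libraries it ranged from 129 to 198 CPM in Flp-In and from 0 to 0.784 CPM in HEK293T. TLX1, a homeobox gene best known as a T-cell leukaemia oncogene, had 62.7 and 61.4 CPM in FLP against 0, at least 37.2-fold lower in CTRL. CEBPE, a transcription factor of granulocytes, had 119 and 100.1 CPM against 0, at least 65.6-fold lower, and was the 1 gene of the 106 that was at or under the limit in all 4 RPRD1B_FL libraries.

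MGMT, which repairs DNA by removing alkyl groups from guanine, had 66.2 and 72.2 CPM in FLP and no count in CTRL, at least 41.5-fold lower in CTRL (adjusted p = 3.779e-10), and 62.4 to 95.4 CPM in the other Flp-In libraries against 0 to 0.349 CPM in the other HEK293T libraries. SLFN11, which blocks DNA replication in stressed cells, had 46.4 and 51.0 CPM in FLP against 0, at least 29.2-fold lower (adjusted p = 3.734e-09), and no count in any of the other 14 HEK293T libraries. FAM111B, a serine protease gene, had 53.6 and 34.4 CPM against 0, at least 26.4-fold lower.

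FAM111B and SLFN11 had neighbours that were also on the FLP side. FAM111A, 15337 bases from FAM111B, had 22.8 and 17.5 CPM against 0 and 0.444 CPM, a ratio of 80.2 (95% interval 14.1 to 3193, on a single CTRL count). SLFN5, 76649 bases from SLFN11 and also an interferon-inducible Schlafen gene, had 11.03 and 10.03 CPM against 1.11 and 0.444 CPM, a ratio of 14.1 (4.62 to 70.4). In the other libraries SLFN5 overlapped between the lines, with 0.509 to 4.20 CPM in HEK293T and 2.67 to 9.90 CPM in Flp-In. Over both classes, 12 pairs lay under 100 kb apart, of which 11 pairs (21 genes) were both on the FLP side, none both on the CTRL side and 1 (PLPPR3 and KISS1R) on opposite sides. The FLP-side set is larger and allows more pairs, and how often genes tested lie this close was not computed. These counts therefore do not show that either set is clustered.

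The 250 bases upstream of a start annotated by RefSeq are shown for MGMT and SLFN11, detected in FLP alone, and for GSTP1. GSTP1 is a glutathione transferase gene that was 20.1-fold higher in CTRL. All 3 are used as markers of drug response in tumours, and in all 3 that start lies inside the GENCODE gene. The windows are RefSeq sequences on GRCh38.p14, 5' to 3' on the gene's strand, with each CpG dinucleotide, the site of DNA methylation, in capitals. Methylation was not analysed here.
MGMT: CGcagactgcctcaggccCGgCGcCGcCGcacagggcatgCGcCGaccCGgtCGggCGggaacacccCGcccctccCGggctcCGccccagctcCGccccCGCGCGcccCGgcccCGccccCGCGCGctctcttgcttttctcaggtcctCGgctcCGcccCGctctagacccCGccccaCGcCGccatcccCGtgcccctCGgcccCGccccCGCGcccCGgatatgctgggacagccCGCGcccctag
SLFN11: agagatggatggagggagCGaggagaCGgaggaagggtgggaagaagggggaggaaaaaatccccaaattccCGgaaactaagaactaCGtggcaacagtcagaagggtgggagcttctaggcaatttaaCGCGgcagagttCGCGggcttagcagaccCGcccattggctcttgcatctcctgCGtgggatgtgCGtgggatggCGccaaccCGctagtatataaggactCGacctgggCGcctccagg
GSTP1: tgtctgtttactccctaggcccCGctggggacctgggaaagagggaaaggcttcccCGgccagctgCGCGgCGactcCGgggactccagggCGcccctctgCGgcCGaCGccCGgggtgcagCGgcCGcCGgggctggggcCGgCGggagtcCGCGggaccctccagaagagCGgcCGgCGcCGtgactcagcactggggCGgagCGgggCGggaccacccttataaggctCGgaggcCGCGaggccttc
The MGMT window (chr10:129466991-129467240) holds 36 CpG dinucleotides, and 5.87% of the 27305 promoter windows of this length hold as many or more. In GSTP1 (chr11:67583562-67583811) there are 28, a number reached by 18.3% of windows. The SLFN11 window (chr17:35373622-35373871, minus strand) holds 15, reached by 46.3% of windows. Where a gene had several starts, the window with the most CpG was taken. A window was found for 25 of the 41 CTRL-side genes and 71 of the 106 FLP-side genes, so neither set is described in full. Counted on a slightly longer window that runs past the start, 92% of the CTRL-side and 74.6% of the FLP-side windows held 15 CpG or more. The share was 93.8% over 7472 tested genes with a mean of 10 CPM or more in CTRL or FLP, whose median was 30 CpG. On that window MGMT held 45, GSTP1 36 and SLFN11 18.

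Genes with ZNF names made up 10 of the 106 FLP-side genes (9.43%, beside 2.41% of the genes at 10 CPM or more in FLP), among them the antisense transcripts ZNF793-AS1 and ZNF790-AS1 and the pseudogene ZNF542P. None of the 41 CTRL-side genes had such a name (1.92% of the genes at that level in CTRL did), though they hold zinc finger genes with other names, such as SNAI2 and PLAGL1. ZFP82, a KRAB zinc finger gene on 19q, had 56.6 and 49.9 CPM in FLP and no CTRL count, at least 32.0-fold lower, and ZNF544 had 39.2 and 36.7 CPM against 0, at least 22.8-fold lower. ZSCAN18 and ZNF329, 7824 bases apart on the same arm, had 42.2 and 36.7 CPM and 11.4 and 16.05 CPM in FLP, against 0 and 0.444 CPM and 1.11 and 0 CPM in CTRL. Of 131 ZNF-named genes tested on 19q, 80 were lower and 3 higher in CTRL, with a median log2 fold change of -1.57 (-1.26 in the other libraries). Over all genes tested, 17.4% were lower and 16.1% higher. The 358 other genes on 19q had 126 lower and 46 higher and a median of -0.35 (-0.68 in the other libraries). On 19p, the 37 ZNF-named genes had 11 lower and 2 higher and a median of -0.35 (0.004 in the other libraries). Outside chromosome 19, the 210 ZNF-named genes had 26 lower and 28 higher and a median of 0.09 (0.07 in the other libraries). Reads can be split between near-identical KRAB genes, so single zinc finger values are less certain than these counts.

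Of 14 intermediate filament and lamin genes tested, 8 were lower and 1 higher in CTRL (64.3% called, beside 33.4% over all genes). The list median was -0.79 against 0.02 over all genes. KRT19, a keratin of simple epithelia, had 0.556 and 2.22 CPM in CTRL (mean 1.39 ± 1.18, SD, n = 2) and 305 and 381 CPM in FLP (343 ± 53.8), a log2 difference of -7.82 ± 0.44 (SE; adjusted p = 2.385e-12). Its range was 0 to 1.53 CPM in the other HEK293T and 435 to 797 CPM in the other Flp-In libraries. The keratin pair KRT8 and KRT18, which polymerise together, fell by 3.30 and 2.29 on the log2 scale (adjusted p = 9.726e-08 and 1.484e-07). Vimentin, VIM, the mesenchymal filament protein, had 127 and 150.4 CPM in CTRL against 331 and 391 CPM in FLP, a log2 difference of -1.38 (adjusted p = 1.258e-06). Each of these 4 genes had non-overlapping groups, as did 65.8% of all genes tested.

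The neurofilament genes NEFL and NEFM, neighbours on 8p, differed in opposite directions. NEFL, the light chain, had 3.89 and 2.66 CPM in CTRL against 154 and 139 CPM in FLP, a log2 difference of -5.49 ± 0.31 (SE; adjusted p = 7.219e-13). NEFM, the medium chain, had 8.33 and 20.4 CPM in CTRL against 3.80 and 2.29 CPM in FLP, a log2 difference of 2.29 ± 0.47 (adjusted p = 0.0004641), which rests in part on the second CTRL library: without it the value was 1.45 with an adjusted p of 0.0749. INA, the internexin of the same family, was not called (log2 fold change -0.33, adjusted p = 0.4094).

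Of 20 neuronal and neural crest genes tested, 11 were lower and 4 higher in CTRL (75% called, beside 33.4% over all genes). The median log2 fold change was -1.24 (-1.35 in the other libraries). CDH2, N-cadherin, had 20 and 21.7 CPM in CTRL against 240 and 211 CPM in FLP, a log2 difference of -3.42 ± 0.21 (SE, adjusted p = 3.739e-12). Its groups did not overlap, as in 65.8% of all genes tested. NCAM1, the neural cell adhesion molecule, fell by 4.42 on the log2 scale from 38.8 and 37.3 CPM in FLP to 2.22 and 1.33 CPM in CTRL. MAP2, a dendritic microtubule protein, had 9.12 and 13.8 CPM in FLP and no CTRL count, at least 6.86-fold lower. PEG10, a retrotransposon-derived imprinted gene, had 0 and 1.77 CPM in CTRL against 140 and 145 CPM in FLP, a log2 difference of -7.11 ± 0.41 (adjusted p = 5.967e-12).

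Adhesion genes shared the direction of the neuronal list, with 16 of 33 members lower and 4 higher in CTRL and a median of -0.77. Of the adhesion list 60.6% was called, beside 33.4% over all genes. EPCAM, the epithelial adhesion molecule, had 1.67 and 4.43 CPM in CTRL against 113 and 73.7 CPM in FLP, a log2 difference of -4.85 ± 0.39 (SE; adjusted p = 5.035e-10). E-cadherin, CDH1, had 9.45 and 8.43 CPM against 31.9 and 26.4 CPM, a log2 difference of -1.70 (adjusted p = 0.0006765). Both cadherins of the classical epithelial and mesenchymal pair, CDH1 and CDH2, were thus lower in CTRL, and SNAI2 was higher there. In the other libraries CDH1 overlapped between the lines (6.065 to 19.51 CPM in HEK293T and 14.46 to 33.35 CPM in Flp-In), whereas CDH2 did not. CD44, the hyaluronan receptor, had 15.97 and 11.2 CPM in FLP against 0 and 0.444 CPM in CTRL, a ratio of 53.7 (95% interval 9.37 to 2146, on a single count), while the protocadherin PCDH10 went the other way, with 30.01 and 33.7 CPM in CTRL against 0.760 and 0.573 CPM in FLP (log2 fold change 5.51, adjusted p = 1.857e-09).

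In the extracellular matrix list 9 of 32 members were lower and 4 higher in CTRL (40.6% called, beside 33.4% over all genes). The list median was -0.48 (-0.20 in the other libraries). The laminin chains LAMA4 and LAMB1 fell by 2.40 and 1.69 on the log2 scale (adjusted p = 6.391e-06 and 1.434e-06), LAMB1 from 113 and 72.5 CPM in FLP to 28.3 and 28.8 CPM in CTRL. In the other libraries the LAMB1 difference was smaller, -0.65, and that of LAMA4 alike, -2.35. The cytoskeletal protein ACTN4, an actin crosslinker, had 1208 and 724 CPM in CTRL against 2135 and 2684 CPM in FLP, a log2 difference of -1.32 (adjusted p = 0.00225), and its call was lost without the second CTRL library (-1.02, adjusted p = 0.05855).

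Kidney development factors moved in both directions. SIX2, which keeps nephron progenitors undifferentiated, had 27.2 and 36.8 CPM in CTRL against 3.42 and 2.87 CPM in FLP, a log2 difference of 3.35 ± 0.34 (SE; adjusted p = 2.792e-08). CITED1, a second marker of the cap mesenchyme, had 65.0 and 78.9 CPM against 16.7 and 17.5 CPM, a log2 difference of 2.07 (adjusted p = 4.15e-07). These 2 were the called members that were higher in CTRL, and 8 of the 19 tested were lower, with a list median of -0.51. Of the 19, 52.6% were called, beside 33.4% over all genes. GATA3, a factor of the nephric duct and ureteric bud, had 17.8 and 14.2 CPM in CTRL against 43.3 and 36.7 CPM in FLP (log2 fold change -1.33, adjusted p = 0.0003266). LHX1, of the early nephron, had 12.8 and 13.3 CPM against 12.2 and 12.3 CPM and was not called (log2 fold change 0.09 ± 0.27, SE).

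The HOX clusters held 17 lower and 6 higher genes in CTRL among 40 tested (57.5% called, beside 33.4% over all genes). Their median was -0.52 (-0.29 in the other libraries). The antisense transcript HOXA-AS3 had 1.11 and 2.22 CPM in CTRL against 29.7 and 27.8 CPM in FLP, a log2 difference of -4.02 (adjusted p = 8.526e-08), and HOXA13 had 16.1 and 9.76 CPM against 52.5 and 45.0 CPM, -1.93 (adjusted p = 1.29e-05). HOXB8 was higher in CTRL, with 41.1 and 32.4 CPM against 14.4 and 10.9 CPM (log2 fold change 1.54, adjusted p = 0.0004093), and HOXD13 likewise, with 52.2 and 64.3 CPM against 30.8 and 26.1 CPM (1.04, adjusted p = 0.0008183). Whether the authors' counting used strand is not given in the sources used here, so reads of an antisense transcript and of the gene it overlaps may not be separate.

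**Figure D4:**
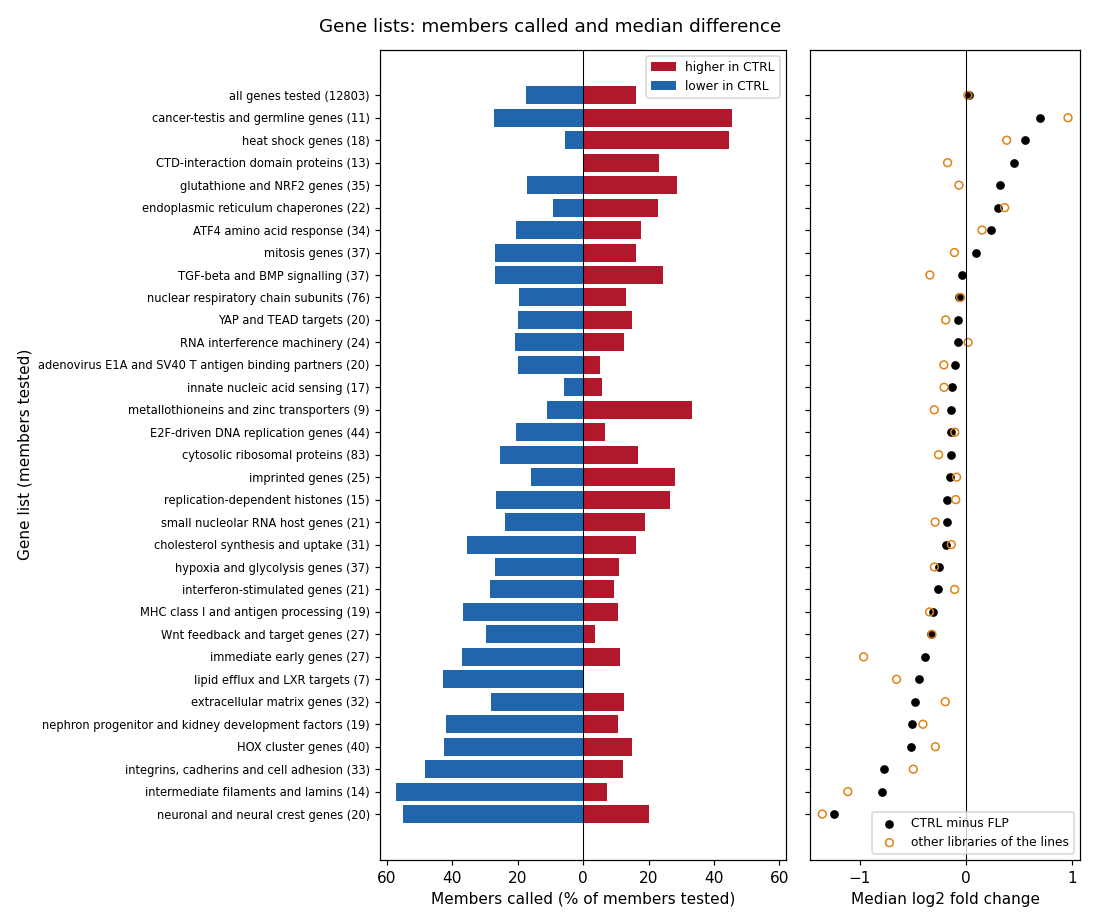
For the gene lists and for all 12803 genes, the percentage of tested members called higher (red, right) and lower (blue, left) in CTRL, and on the right the median log2 fold change between CTRL and FLP (black) and in the other libraries (orange rings). The neuronal list is at -1.24 and the heat shock list at 0.56, and the black and orange medians of 4 lists have opposite signs.

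CDKN1A, the p21 inhibitor of cyclin-dependent kinases, had 11.1 and 19.5 CPM in CTRL against 73.4 and 92.3 CPM in FLP, a log2 difference of -2.41 ± 0.38 (SE; adjusted p = 2.702e-05). PHLDA3, an inhibitor of AKT, had 28.3 and 20.4 CPM against 126 and 134 CPM, -2.43 ± 0.24 (adjusted p = 2.389e-08). MDM2, a ubiquitin ligase, had 70.6 and 73.2 CPM against 168 and 135 CPM, -1.07 ± 0.21 (adjusted p = 0.0002937). No overlap between the groups was seen in these 3 genes, as in 65.8% of all genes tested.

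PMAIP1 and BBC3, which encode NOXA and PUMA, fell by 1.80 and 1.42 on the log2 scale (adjusted p = 8.027e-06 and 1.678e-05), BBC3 from 124 CPM in both FLP libraries to 47.2 and 45.7 CPM. BAX, the pro-apoptotic effector at the mitochondrial membrane, was higher in CTRL, with 57.2 and 51.4 CPM against 28.5 and 13.8 CPM. Its log2 difference was 1.39 ± 0.27 (SE, adjusted p = 0.0003225). In the other libraries BAX overlapped between the lines, with 21.2 to 55.5 CPM in HEK293T and 20.5 to 34.5 CPM in Flp-In. The tetraspanin CD82 was also higher in CTRL (log2 fold change 2.36, adjusted p = 0.000116). Among 20 binding partners of E1A and large T antigen, 4 were lower and 1 higher in CTRL (25% called, under the 33.4% over all genes), with a median of -0.10.

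Negative regulators of growth factor signalling formed the largest differences of the immediate early list. In that list 10 of 27 members were lower and 3 higher in CTRL (48.1% called, beside 33.4% over all genes). The median was -0.38, and -0.96 in the other libraries. DUSP6, a phosphatase that switches off ERK, had 2.22 CPM in both CTRL libraries against 51.3 and 34.4 CPM in FLP, a log2 difference of -4.23 ± 0.44 (SE; adjusted p = 3.927e-08). DUSP4 and DUSP5, of the same family, fell by 3.10 and 2.85 (adjusted p = 1.49e-06 and 6.089e-06), and SPRY2, a Sprouty inhibitor of receptor tyrosine kinases, fell by 2.41 (adjusted p = 0.0005306). DUSP2 went the other way, with 8.89 and 7.10 CPM in CTRL and no count in FLP, at least 7.01-fold higher. MYC, another gene of that list, had 26.1 and 43.0 CPM in CTRL against 15.21 and 16.6 CPM in FLP (log2 fold change 1.13, adjusted p = 0.01085), and its call was lost without CTRL 2 (0.68, adjusted p = 0.2571), FLP 1 (1.03, 0.07532) or FLP 2 (1.20, 0.05047).

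In other signalling lists, the Wnt list had 8 of 27 members lower and 1 higher in CTRL (33.3% called, beside 33.4% over all genes, median -0.33) and the YAP list 4 of 20 lower and 3 higher (35% called, median -0.07). The TGF-beta and BMP list had 10 of 37 lower and 9 higher (51.4% called), with a median of -0.04 that was -0.34 in the other libraries. The Wnt receptor FZD2 was the higher one of its list, with 83.3 and 78.5 CPM in CTRL against 19.8 and 23.2 CPM in FLP, a log2 difference of 1.90 (adjusted p = 1.516e-06). SFRP1, a secreted Wnt antagonist, had 19.4 and 20.6 CPM in FLP and no CTRL count, at least 12.01-fold lower. BMP4, a bone morphogenetic protein, was higher in CTRL by 2.61 on the log2 scale (18.9 and 11.98 CPM against 2.28 and 2.58 CPM, adjusted p = 6.866e-05), and GDF15, a stress-induced ligand of that family, fell by 2.31 (adjusted p = 0.002713).

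Cytosolic chaperones leaned to CTRL: 8 of 18 heat shock genes were higher and 1 lower (50% called, beside 33.4% over all genes). Their median was 0.56 (0.38 in the other libraries). AHSA1, the activator of the HSP90 ATPase, had 669 and 626 CPM in CTRL against 259 and 266 CPM in FLP, a log2 difference of 1.30 (adjusted p = 3.983e-07), and the co-chaperone STIP1 had 747 and 682 CPM against 308 and 361 CPM, 1.10 (adjusted p = 2.194e-05). HSPB1, a small heat shock protein, was higher by 1.45 (51.7 and 52.3 CPM against 20.5 and 17.8 CPM, adjusted p = 5.871e-05). BAG3, of chaperone-assisted autophagy, was the lower member, at -1.01.

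In the endoplasmic reticulum list 5 of 22 members were higher and 2 lower, 31.8% in all against 33.4% over all genes, with a median of 0.30. MANF, a secreted stress factor, had 291 and 368 CPM in CTRL against 107 and 120 CPM in FLP (log2 fold change 1.53, adjusted p = 2.291e-05), and HSPA5, the BiP chaperone, 1412 and 1713 CPM against 833 and 853 CPM (0.89, adjusted p = 0.000197). HSP90B1, the HSP90 of that compartment, was called lower (-0.62), a call lost without CTRL 1 (-0.50, adjusted p = 0.1604), FLP 1 (-0.63, 0.07664) or FLP 2 (-0.65, 0.05841). The amino acid response list of ATF4 had 6 of 34 higher and 7 lower (38.2% called, beside 33.4% over all genes). SLC7A5, a leucine transporter of that list, had 646 and 695 CPM in CTRL against 134 and 138 CPM in FLP, a log2 difference of 2.30 ± 0.17 (SE; adjusted p = 1.659e-10), whereas NUPR1 and CEBPG fell by 2.41 and 1.43 (adjusted p = 0.0001258 and 8.233e-05).

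GSTP1 (chr11:67583595-67586656), whose promoter is printed above, had 2466 and 1719 CPM in CTRL (mean 2092 ± 528, SD, n = 2) against 106 and 102 CPM in FLP (104 ± 2.57), a log2 difference of 4.33 ± 0.24 (SE; adjusted p = 7.219e-13). It ranged from 1488 to 2443 CPM in the other HEK293T libraries and was 145 and 150 CPM in FLP_TET but 0 to 1.33 CPM in the 4 RPRD1B_FL libraries. Of 35 glutathione and NRF2 genes 10 were higher and 6 lower in CTRL (45.7% called, beside 33.4% over all genes). The list median was 0.32, which became 0.11 with genes lacking counts in a group set at their bound and -0.07 in the other libraries. HMOX1, haem oxygenase, had 240.0 and 173 CPM in CTRL against 54.0 and 56.2 CPM in FLP (log2 fold change 1.90, adjusted p = 7.22e-08), and NQO1, a quinone reductase, 15 and 23.1 CPM against 4.56 and 6.31 CPM (1.79, adjusted p = 0.0002893). MGST1, a microsomal glutathione transferase, fell by 2.31 (11.1 and 15.1 CPM against 67.7 and 64.5 CPM, adjusted p = 2.617e-07).

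Among genes of cholesterol synthesis and uptake, 11 of 31 were lower and 5 higher in CTRL (51.6% called, beside 33.4% over all genes). Their median was -0.19. HMGCS1, which makes HMG-CoA, had 112 and 87.8 CPM in CTRL against 547 and 456 CPM in FLP, a log2 difference of -2.33 ± 0.21 (SE; adjusted p = 5.125e-09). The HMGCS1 level in the other Flp-In libraries was lower, 136 to 321 CPM, and the difference there was -1.03. FDFT1, squalene synthase on 8p, had 103 and 117 CPM against 239 and 267 CPM, -1.20 (adjusted p = 1.666e-05). For hypoxia and glycolysis genes the counts were 10 lower and 4 higher of 37 (37.8% called, beside 33.4% over all genes). For nuclear respiratory chain subunits they were 15 lower and 10 higher of 76 (32.9% called). The 13 mitochondrially encoded mRNAs were listed at 0 in all 24 libraries.

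Among the most abundant transcripts, single ribosomal protein genes differed. Their list had 21 of 83 members lower and 14 higher in CTRL (42.2% called, beside 33.4% over all genes) and a median of -0.14. RPL22L1, a paralog of RPL22, had 451 and 375 CPM in CTRL against 58.2 and 58.5 CPM in FLP, a log2 difference of 2.82 ± 0.16 (SE; adjusted p = 7.219e-13). RPS28 had 347 and 381 CPM against 2000.0 and 2389 CPM, -2.59 ± 0.20 (adjusted p = 1.435e-10), and RPS19 2673 and 2186 CPM against 9101 and 9161 CPM, -1.91 ± 0.16 (adjusted p = 6.97e-10). RPL27A, the highest of the named genes, had 33950 and 20040 CPM in CTRL against 11750 and 12340 CPM in FLP, 1.16 ± 0.23 (adjusted p = 0.0003405). Ribosomal protein genes have many processed pseudogenes, so reads may be lost or split by the authors' counting. The poly(A)-binding protein PABPC1 had 1274 and 1264 CPM against 429 and 441 CPM (1.54, adjusted p = 2.415e-07), and the tubulin TUBA1B 2150.0 and 2670.0 CPM against 5667 and 4803 CPM (-1.12, adjusted p = 4.041e-05).

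Of 44 replication genes driven by E2F, 9 were lower and 3 higher in CTRL (27.3% called, beside 33.4% over all genes, median -0.14), and of 37 mitosis genes 10 were lower and 6 higher (43.2% called, median 0.09, and -0.11 in the other libraries). The histone gene HIST1H4C had 1794 and 1565 CPM in CTRL against 384 and 451 CPM in FLP, a log2 difference of 2.01 ± 0.29 (SE; adjusted p = 9.02e-06). Of 15 replication-dependent histone genes tested 4 were higher and 4 lower (53.3% called, beside 33.4% over all genes). Most of their mRNAs lack the poly(A) tail that the kit primes on, and these counts need not follow their total level.

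Genes that respond to foreign nucleic acid were examined because CTRL alone was transfected. Of 17 genes of innate nucleic acid sensing 1 was higher and 1 lower (11.8% called, beside 33.4% over all genes, median -0.13). Of 21 interferon-stimulated genes 2 were higher and 6 lower (38.1% called, median -0.26). For the RNA interference machinery, 3 of 24 genes were higher and 5 lower (33.3% called, median -0.08). BST2, or tetherin, which holds budding virus at the membrane, had 156 and 141 CPM in CTRL against 30.04 and 29.5 CPM in FLP, a log2 difference of 2.32 ± 0.19 (SE; adjusted p = 1.192e-09). PARP14 and PARP9, ADP-ribosyltransferase genes induced by interferon, had 20.5 and 12.04 CPM and 17.9 and 11.47 CPM in FLP, against 0 and 0.444 CPM and 0.556 and 0.444 CPM in CTRL, ratios of 63.6 (95% interval 11.2 to 2538) and 28.8 (7.74 to 242). In the interference machinery, TSN, a subunit of the C3PO nuclease, was higher by 1.18 (193 and 206 CPM against 88.6 and 87.2 CPM, adjusted p = 8.911e-06) and DROSHA, which crops primary microRNAs, lower by a log2 difference of -0.99 (adjusted p = 0.0002596).

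Antigen processing genes had 7 of 19 lower and 2 higher in CTRL (47.4% called, beside 33.4% over all genes), with a median of -0.31. The peptide transporter subunit TAP2 had 60.01 and 72.7 CPM in CTRL against 192 and 220 CPM in FLP (log2 fold change -1.63, adjusted p = 8.553e-06), its partner TAP1 8.34 and 8.87 CPM against 19.4 and 24.4 CPM (-1.35, adjusted p = 0.003099), and the loading chaperone TAPBP 44.5 and 27.1 CPM against 94.3 and 107 CPM (-1.51, adjusted p = 1.187e-05). These 3 genes of peptide loading lie within the MHC on 6p, and their groups did not overlap, as in 65.8% of all genes tested. The 2 higher members of the list were PDIA3 (289 and 243 CPM in CTRL against 169 and 130 CPM in FLP) and HLA-B (118 and 124 CPM against 81.7 and 90.3 CPM). The call of HLA-B was lost with DESeq2's size factors, the DESeq2 Wald test, no filter on low counts or the GC correction. It was lost too at a mean count of 50 or more, with only the 4 libraries fitted and on leaving out any replicate. The PDIA3 call was lost without CTRL 1 (log2 fold change 0.67) or FLP 2 (0.65).

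Germline and imprinted genes were mixed. Of 74 cancer-testis and germline genes 11 were tested, 5 higher and 3 lower in CTRL (72.7% called, beside 33.4% over all genes). Their median was 0.70 (0.96 in the other libraries). The X-linked CTAG2 had 10.6 and 11.98 CPM in CTRL and none in FLP, at least 9.88-fold higher, and MAGEA10 4.45 and 3.10 CPM against none, at least 3.31-fold higher. ACTL8, an actin-related testis gene, was on the FLP side at no CTRL count, at least 7.26-fold lower. Imprinted genes had 7 of 25 higher and 4 lower in CTRL (44% called, beside 33.4% over all genes). Next to PLAGL1, its overlapping noncoding transcript HYMAI had 1.11 and 3.99 CPM in CTRL and none in FLP. The HYMAI call (adjusted p = 0.004527) was lost without the second CTRL library. SGCE, the maternally imprinted neighbour of PEG10, had 2.78 and 0.444 CPM in CTRL against 11.03 and 8.03 CPM in FLP (-2.62, adjusted p = 0.005057), a call likewise lost without that library (-1.77, adjusted p = 0.1101).

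The RPRD genes themselves, targets of the knockdowns elsewhere in the series, differed between the baselines. RPRD1A, which binds the C-terminal domain of RNA polymerase II, had 152 and 162 CPM in CTRL against 64.2 and 49.02 CPM in FLP, a log2 difference of 1.48 ± 0.21 (SE; adjusted p = 6.51e-06). RPRD2, its larger relative, had 96.1 and 99.4 CPM against 65.0 and 62.8 CPM, 0.61 ± 0.17 (adjusted p = 0.006314), a call lost without CTRL 2 (0.56, adjusted p = 0.05647) or FLP 2 (0.59, 0.05121). RPRD1B had 27.8 and 27.5 CPM against 36.1 and 35.3 CPM and was not called (-0.37, adjusted p = 0.3671). In 6 HEK293T libraries the siRNAs were labelled for other RPRD genes (RPRD1B_KD, RPRD2_KD and RPRD1B_RPRD2_KD). RPRD1A was there at 67.8 to 99.9 CPM, below both CTRL libraries and above both FLP libraries. The CTRL value was thus not matched by these other transfected HEK293T cells. RPRD2 was at 86.8 to 101 CPM in the 6 libraries labelled without it (RPRD1B_KD, RPRD1A_KD and RPRD1A_RPRD1A_KD), close to its CTRL levels. Of the 13 proteins of the CTD-interaction list 3 were higher and none lower, with a median of 0.45 (23.1% called, beside 33.4% over all genes) that was -0.17 in the other libraries. The list holds the 3 RPRD genes, which siRNAs target in those libraries, and their part in that value was not tested.

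Gene levels also differed by chromosome arm. The lowest median was that of 8p, where 84 of 164 genes (51.2%, beside 17.4% over all genes) were lower and 7 higher in CTRL, at -0.79 (-0.81 in the other libraries and -0.80 against FLP_TET, the parent line with tetracycline). On 5p, 45 of 95 genes were lower and 3 higher with a median of -0.74, on 18p 22 of 52 were lower and 2 higher with -0.56, and on 19q 206 of 489 were lower and 49 higher with -0.56. The medians of 5p and 18p were smaller in the other libraries, -0.32 and -0.23, and lay between at -0.55 and -0.40 against FLP_TET. Chromosome 21, at -0.39 with 48 of 117 lower and 12 higher, had a median of 0.05 in the other libraries and of -0.46 against FLP_TET.

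Arms on the other side had smaller medians: 0.48 on 11q (140 of 445 higher, 31.5% beside 16.1% over all genes, and 39 lower), 0.44 on 3p (125 of 346 higher, 29 lower), 0.41 on Xq (90 of 269 higher, 28 lower) and 0.36 on 8q (69 of 288 higher, 19 lower). Their medians in the other libraries were 0.30, 0.41, 0.41 and 0.42. Over 41 arms the sign of the median was the same in the other libraries for 37. DNA copy number was not analysed here.

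Bins of 25 consecutive tested genes, a division chosen after the arm values were seen, showed where on an arm the shift lay. The first 4 bins of 3p, from position 3126916 to 32168713, had medians from -0.20 to 0.04, and the 9 bins from 32236688 onward had medians from 0.40 to 0.84. On 8p the first 5 bins had medians from -1.34 to -0.70, and the last one, from 37405439, had -0.24. The first 9 bins of 19q, from 27684580 to 45076588, had medians from -2.40 to -0.29, the lowest in the fourth (ZNF382 to AC093227.2), where 21 of 25 genes were lower and none was higher in CTRL. The next 5 bins lay between 0.01 and 0.46. Beyond them the bin from ZSCAN5A to ZIK1 (chr19:56219670-57593777) had -1.62.

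**Figure D5:**
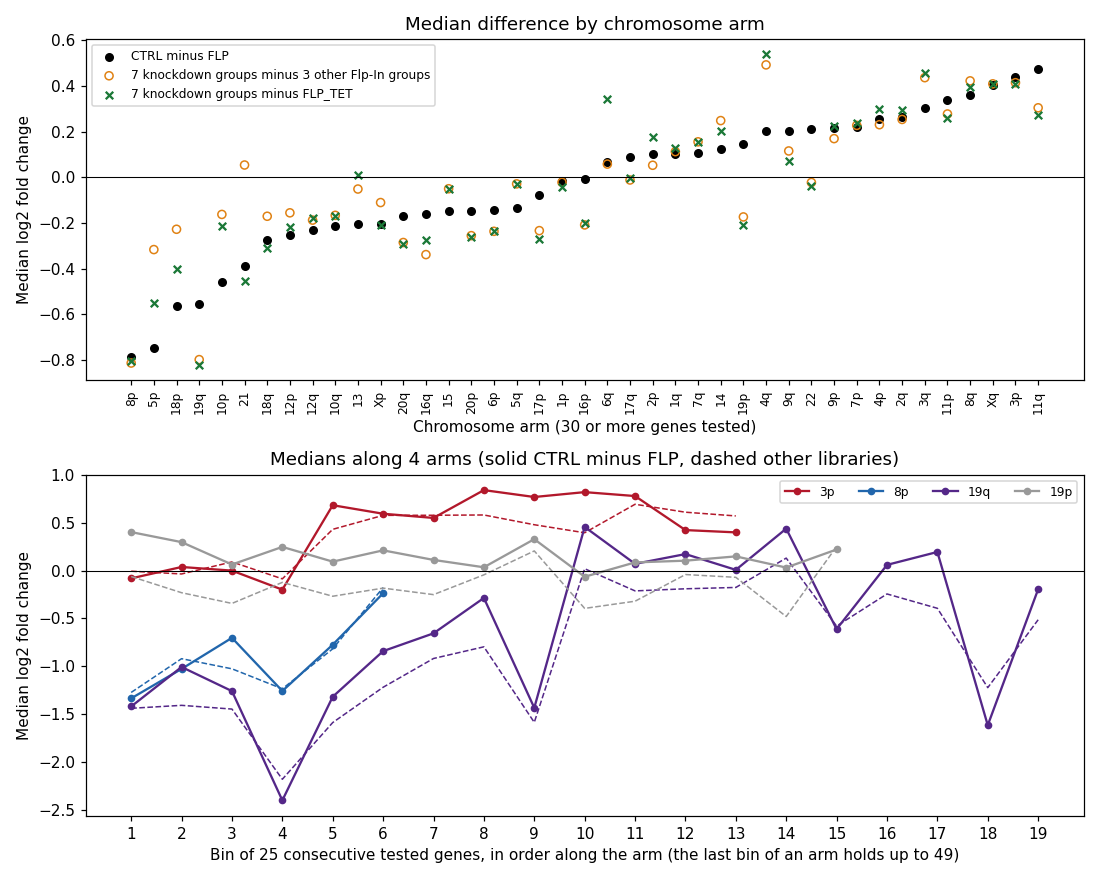
Upper panel: median log2 fold change of each chromosome arm between CTRL and FLP (black), in the other libraries (orange rings) and in the knockdown groups against FLP_TET alone (green crosses). Lower panel: medians of successive bins of 25 tested genes along 3p, 8p, 19q and 19p, solid for CTRL minus FLP and dashed for the other libraries, with 3p stepping up after bin 4 and 19q after bin 9.

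For each of these arms the most expressed called gene among those on the same side as the arm's median was taken as an example. On 8p ATP6V1B2, a subunit of the vacuolar proton pump, had 286 and 231 CPM in CTRL against 541 and 514 CPM in FLP, a log2 difference of -1.03. TYMS, thymidylate synthase, stood for 18p at -0.73, and SOD1, the cytosolic superoxide dismutase, for chromosome 21 at -0.63, a call lost without CTRL 1 (-0.55, adjusted p = 0.05083) or FLP 1 (-0.54, 0.05081). On 3p the small GTPase RHOA had 1034 and 1079 CPM in CTRL against 487 and 565 CPM in FLP, a log2 difference of 1.00. NEFL, FDFT1, DUSP4 and SFRP1, described above, also lie on 8p and were lower in CTRL, while NEFM on that arm was higher. ZNF703, a zinc finger gene on 8p with a higher level than ATP6V1B2, also went against the arm, with 2804 and 2594 CPM in CTRL against 1057 and 1220.0 CPM in FLP (1.25, adjusted p = 1.522e-05).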

How the data were processed

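RNA was measured in 24 libraries of human cell lines, and the text compares CTRL with FLP, 2 libraries each. The deposited values are raw read counts per gene. Per the submitters' processing notes, FastQC, STAR, HTSeq and DESeq2 were used with GRCh38, with no versions or strand setting given in the sources used here. Rows that name no gene were dropped (31.9% to 46.9% of the reads listed in the 4 libraries). Counts limit the precision of low genes, and all intervals and limits cover counting error only.

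Counts were fitted with edgeR 4.0.16 in R 4.3.3: TMM library sizes, filterByExpr (minimum count 10, total 15), one coefficient for each of 12 groups over all 24 libraries (12 residual degrees of freedom), quasi-likelihood test, Benjamini-Hochberg adjustment over all genes tested, called under 0.05. CPM used TMM-scaled totals. A gene at 3 counts or fewer was at or under the detection limit, and a fold against a group with no counts was computed against 3 counts in its shallower library; groups with 1 to 3 counts in all have a ratio of counts with an exact 95% interval. DESeq2 1.42.0 and a GC correction (R's lowess function, entered as edgeR offsets) served in alternatives. The fit was tested on simulated data. Places came from GENCODE 29 by gene name (54858 of 58138 by current and 31 by older symbol), promoters from RefSeq.

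The groups, gene lists and members were chosen with earlier results of these data known. The rule for named genes took the RPRD genes, the 12 largest called differences each way, up to 2 called members each way of each list and the most expressed called gene of each shifted arm, 154 genes in all, from which the text draws. Others (such as CDH2 and KRT8) were chosen after their values were seen, and some genes are not reported here. Same-numbered CTRL and FLP libraries share only a number: their deviations correlated at 0.104 over 8780 genes, and at a mean of -0.0145 between the lines. Within HEK293T the mean was 0.324, and reads in no gene made up 34.3% to 36.7% of the libraries numbered 1 and 27.4% to 29.8% of those numbered 2. The alternatives tried are in the closing section.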

Additional observations from a re-analysis of the deposited data

How the results depend on the processing

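The number of genes called between CTRL and FLP was 4239 with DESeq2's size factors in edgeR, 3610 with the DESeq2 Wald test, 4134 with no filter on low counts, 4454 with a GC correction, 4654 without the second RPRD1A_RPRD2_KD library and 4083 with only the 4 libraries in the fit. It fell to 2581 of 6891 genes with a mean count of 50 or more and to 2513 with a log2 difference of at least 1 in size, where the smaller numbers follow from the stricter rules. Leaving out each replicate in turn gave 2887 to 3316, which leaves a lone library that is assumed to vary like the other groups. For the other libraries the same 2 rules gave 4823 and 2846, against 8356. Genes detected in CTRL alone numbered 16, and in FLP alone 39, at a mean of 20 CPM or more; leaving out a replicate gave 36 to 51 and 100 to 158. The fit with the replicate number as a block gave 4699 calls (4883 with the GC correction) and 8616 in the other libraries, and changed no call of a named gene.

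Of 198 named genes called, none reversed where it was tested (121 of them at a mean count of 50 or more, 191 with only the 4 libraries in the fit). The calls lost were 1 with DESeq2's size factors (HLA-B), 9 with the DESeq2 Wald test, 4 with the GC correction and 20 to 25 on leaving out a replicate. Alternatives of the other libraries against FLP_TET alone (6561 calls), of the detection rule and of the bins were chosen after seeing the data. In the other libraries 11 of 33 list medians and 22 of 41 arm medians moved by more than the spread between the libraries of a group, and 4 list medians changed sign: CTD-interaction proteins, mitosis, RNA interference and glutathione genes.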
